A study of Danio rerio with 8 samples.

Results

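A set of 9 transcription factor genes that steer cells toward a photoreceptor fate in the pineal organ or the retina were followed in sorted cells of the zebrafish pineal complex with and without knockdown of tbx2b. They are the rows, of 32433 in the table, whose gene symbol is otx5, crx, otx2, nr2e3, rx1, rx2, rx3, prdm1a or six7, and all 9 symbols were found once each. The cells carried Kaede, a fluorescent protein, from the transgene Tg(flhBAC:kaede)vu376, in which sequence of the pineal homeobox gene flh drives the reporter, and were sorted from heads at 24 to 26 hours post-fertilization. The wild-type group is 4 libraries from embryos that were not injected. The knockdown group is 4 libraries from embryos given a splice-blocking morpholino against tbx2b, 2 libraries at 5 ng and 2 at 6 ng. The labels pair the libraries as technical replicates, so each group rests on 2 RNA samples, and in the knockdown the dose differs between these. Since the controls received no injection, an effect of injecting and an effect of less Tbx2b cannot be told apart.

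Photoreceptors of the pineal organ and of the eye are made by a shared set of regulators. Homeobox factors of the Otx family bind the promoters of phototransduction genes and switch them on, and crx and otx5 are the members most tied to photoreceptor and pineal cells, while otx2 also patterns the anterior brain. Rx (retinal homeobox) genes act first in the field that forms the eye and later in photoreceptors. Nr2e3, an orphan nuclear receptor, promotes the rod program and, as known from mouse and human, represses cone genes. Prdm1a is a zinc finger repressor whose mouse counterpart, Blimp1, keeps photoreceptor precursors from becoming bipolar cells. Six7 is a homeobox factor needed for green-sensitive opsin expression in zebrafish cones.

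Each gene has 1 value per group, in FPKM (fragments per kilobase of transcript scaled to the number of mapped fragments), which corrects for length and so allows levels of different genes to be set side by side. Below, the wild-type value comes first and the knockdown value second. No value per library was used here, so no spread between libraries, no error of a fold and no library depth can be given. "Called" means that the authors' own test flagged the gene, at a q (p adjusted over all tested genes) under 0.05. If the paired libraries entered that test as separate replicates, which the sources used here do not say, its p-values measure technical spread in part. The table marks 18954 genes as tested, among them 8 of the 9 factors. The targeted gene, tbx2b, was at 17.4 and 18.3 FPKM. A splice morpholino need not lower the count of a gene's transcripts, so this value does not check the knockdown.

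In the knockdown, otx5 fell, and it was the only called gene among the 8 tested factors. Of all tested genes the authors' deposited table calls 0.332% lower and 0.106% higher, or 0.438% in either direction. The other 7 tested factors were not called: crx, otx2, nr2e3, rx1 and rx2 had smaller values in the knockdown, and rx3 and prdm1a had larger ones. Below 0 on the log2 scale were 6 of the 8 tested factors, against 54.1% of all tested genes. The median log2 fold change of the 8 was -0.41, beside -0.03 over all tested genes, whose middle quartiles ran from -0.26 to 0.17. Before adjustment, p in the authors' deposited table was under 0.05 for 3 factors on the lower side (otx5, nr2e3 and rx1) and for 1 on the higher side (prdm1a), where all tested genes gave 3.76% and 1.77%. At least 2-fold lower were 2 of the 8, otx5 and nr2e3, beside 4.17% of all tested genes. The factors were chosen with earlier results of these data known, so these counts describe the set and do not test it.

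**Figure D1:**
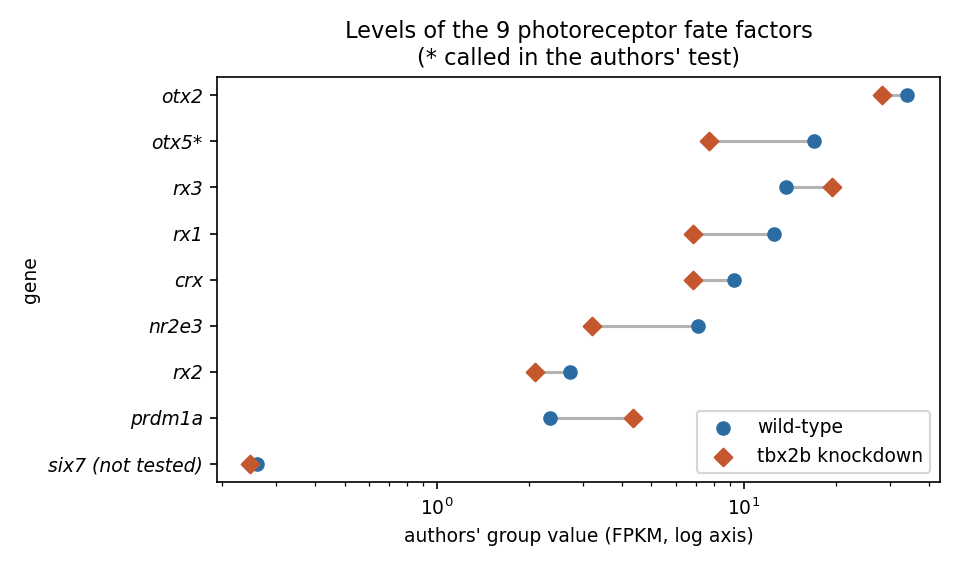
Authors' group value of each factor in FPKM (log axis) in wild-type (circles) and tbx2b knockdown (diamonds), 1 value per gene and group with no error available. Otx5, marked by a star, moves from 16.9 to 7.71 FPKM, nr2e3 and rx1 also lie to the left in the knockdown, and rx3 and prdm1a lie to the right.

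In wild-type cells the most abundant factor was otx2 at 34.0 FPKM, followed by otx5 at 16.9, rx3 at 13.7, rx1 at 12.5, crx at 9.26, nr2e3 at 7.08, rx2 at 2.71, prdm1a at 2.33 and six7 at 0.260 FPKM. In the knockdown otx2 again stood first, but rx3 passed otx5 to become second, and prdm1a passed nr2e3 and rx2. Crx and rx1 were level there, at 6.82 FPKM each. Because no spread is known, it cannot be said which neighbours in either order differ. Otx2 lay at or above 91.8% of all rows of the table in wild-type cells and six7 at or above 38.8%.

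Of the Otx factors otx5 carried the call. Otx5 (ENSDARG00000043483, Zv9 chromosome 15, 46861775 to 46867193) regulates genes that show circadian expression in the zebrafish pineal organ. It had 16.9 FPKM in wild-type against 7.71 FPKM in knockdown cells. This is a 2.19-fold fall, a log2 fold change of -1.13, for which the authors' deposited table gives p = 0.0001 and q = 0.0287. A p as small or smaller was held by 66 tested genes of that table, and 2.93% of tested genes with a finite fold lay as low or lower. Crx (ENSDARG00000011989, chromosome 5, 38532880 to 38536606), its close relative, was at 9.26 and 6.82 FPKM, a log2 fold change of -0.44 without a call (p = 0.117 in the authors' deposited table). Otx2 (ENSDARG00000011235, chromosome 17, 44291215 to 44296095), the broadest of these in the embryonic head, was at 34.0 and 28.3 FPKM, a log2 fold change of -0.26 (p = 0.261 in the authors' deposited table). That otx5 was called and its relatives were not does not show that they differ, and the difference was not tested.

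Shares within the family do not depend on how the groups were scaled. Otx1a and otx1b, forebrain and midbrain members that are not among the 9 factors, were included for this sum; the otx1b row lies in a locus shared by 2 rows, so reads of an overlapping gene can enter the sum. Otx5 made up 10.9% of the summed FPKM of the 5 Otx genes in wild-type cells, against 5.90% after knockdown. Crx went from 5.99% to 5.22%, and otx2 was nearly level at 22.0% and 21.7%. Set against crx alone, otx5 was 1.83 times as abundant in wild-type and 1.13 times in knockdown cells. The 5 genes together had 154 FPKM in wild-type against 131 FPKM after knockdown. The sources used here do not say how reads shared by such related genes were assigned.

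Nr2e3 (ENSDARG00000045904, chromosome 25, 22997980 to 23001994) had a log2 fold change as large as that of otx5 but was not called. Its level of 7.08 FPKM in wild-type stood against 3.20 FPKM after knockdown, a 2.21-fold difference and a log2 fold change of -1.14. The authors' deposited table gives p = 0.00065 and q = 0.0986 for it, and 2.87% of tested genes lay as low or lower. Relative to crx it went from 0.764 to 0.470.

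The Rx genes did not move alike in their values, although none was called. Rx1 (ENSDARG00000071684, chromosome 22, 4640466 to 4648012), which acts in retinal precursors and photoreceptors, was at 12.5 and 6.82 FPKM, a log2 fold change of -0.87 (q = 0.219 in the authors' deposited table). Rx2 (ENSDARG00000040321, chromosome 2, 56045665 to 56074438), a retinal gene of similar role, was at 2.71 and 2.09 FPKM, a log2 fold change of -0.38 (p = 0.364 in the authors' deposited table). Rx3 (ENSDARG00000052893, chromosome 21, 9291472 to 9294542), which is needed to form the eye and is also active in the hypothalamus, was at 13.7 and 19.3 FPKM, a log2 fold change of 0.50 (p = 0.0702 in the authors' deposited table). The summed FPKM of the 3 genes was nearly level, at 28.9 in wild-type and 28.2 in the knockdown. Rx1 gave 43.2% of that sum in wild-type cells against 24.1% after knockdown, while rx3 gave 47.4% and 68.5%. The ratio of rx1 to rx3 was 0.913 in wild-type and 0.353 in the knockdown, and no test across samples of this ratio could be made.

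**Figure D2:**
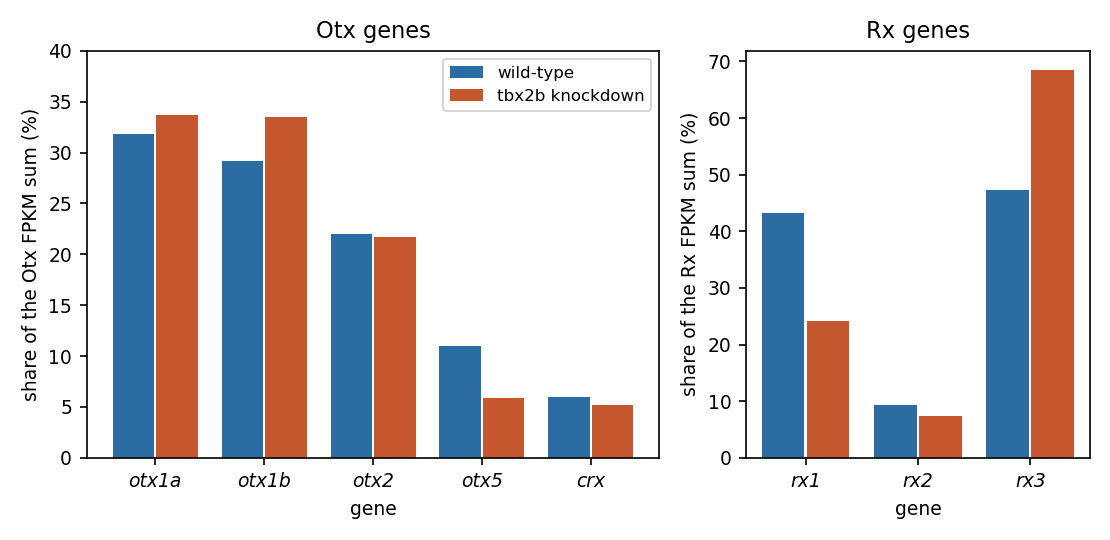
Share of each gene in the summed FPKM of its family (percent), for 5 Otx genes (left) and 3 Rx genes (right), wild-type beside knockdown, 1 value per group. The otx5 share goes from 10.9% to 5.90%, and the rx1 share from 43.2% to 24.1% as that of rx3 goes from 47.4% to 68.5%.

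Prdm1a (ENSDARG00000002445, chromosome 16, 8650397 to 8662788) had 2.33 FPKM in wild-type against 4.36 FPKM after knockdown, the largest upward fold among the 9 factors. The log2 fold change of 0.91 was matched or exceeded by 2.25% of tested genes, and with p = 0.0038 and q = 0.285 in the authors' deposited table it was not called. In zebrafish this gene also serves other cells, among them hatching gland, neural crest and slow muscle precursors. Hatching gland markers summed to 469 FPKM in wild-type against 410 FPKM after knockdown. Of these sums xbp1 alone gave 254 and 220 FPKM, and the he1a and he1b rows lie in a locus shared by 5 rows. The sums therefore do not measure hatching gland content. None of the 8 matched markers was called, where 0.438% of all tested genes were, and none was listed at 0. The part of hatching gland cells in the prdm1a value was not tested. The related genes prdm1b and prdm1c stayed under 1 FPKM in both groups.

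Six7 (ENSDARG00000070107, chromosome 7, 8229739 to 8248372) was listed at 0.260 and 0.246 FPKM and the authors did not test it. At this level, and with the depth unknown, no statement on a difference can be made.

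**Figure D3:**
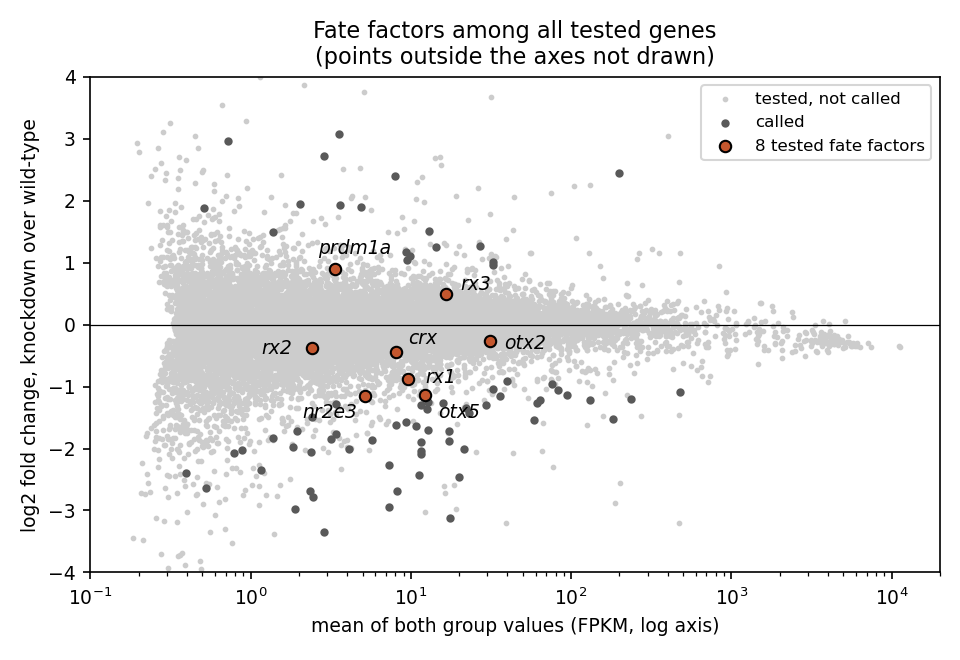
Log2 fold change of the knockdown over wild-type against the mean FPKM of both groups (log axis) for tested genes with a finite fold (light), called genes among them (dark) and the 8 tested factors (orange). Otx5 at -1.13 and nr2e3 at -1.14 are the lowest of the factors, and prdm1a at 0.91 is the highest.

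The reporter's own source gene was lower in value too. Flh, which marks the pineal anlage, was at 238 and 129 FPKM, a log2 fold change of -0.89 without a call (q = 0.0986 in the authors' deposited table). In bulk RNA, fewer cells of a type and less RNA of a gene per cell cannot be told apart, so the factors were also expressed per unit of flh. Per 100 units of flh, otx5 stood at 7.10 in wild-type and 5.99 in the knockdown, and nr2e3 at 2.97 and 2.49, log2 changes of -0.25 and -0.26. The ratio of rx1 was nearly level, at 5.25 and 5.30 per 100. The ratios of crx (3.89 and 5.30), rx2 (1.14 and 1.62) and otx2 (14.3 and 22.0) were larger in the knockdown, opposite to their FPKM. Those of rx3 (5.75 and 15.0) and prdm1a (0.978 and 3.39) were larger as well. Dividing by flh shifts every log2 fold change by the same amount, so any gene that fell less than flh has a larger ratio. Of tested genes with a finite fold, 95.2% lay at or above flh, so a larger ratio is not particular to these factors. The ratios have no test, and whether flh tracks the number of pineal cells in these samples was not tested.

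**Figure D4:**
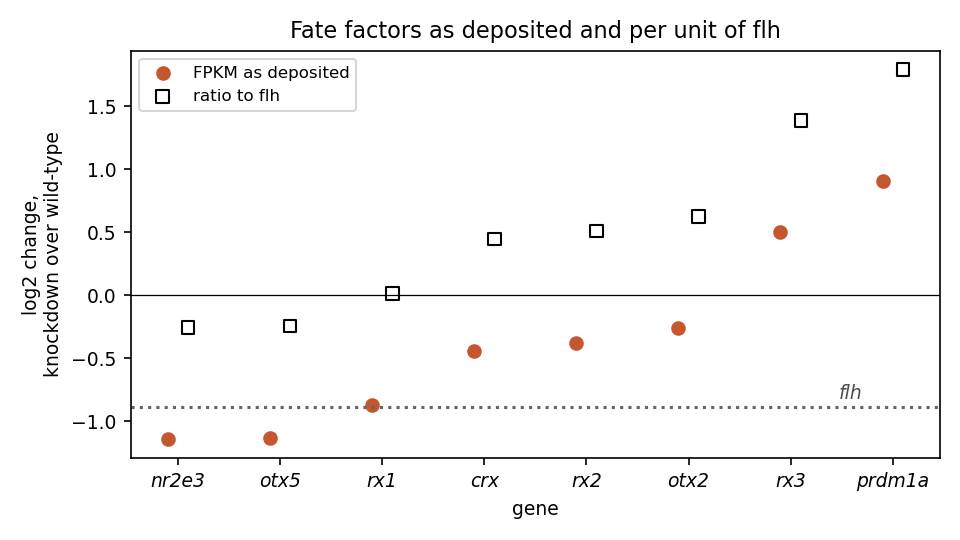
Log2 change of the knockdown over wild-type for the 8 tested factors, from FPKM as deposited (circles) and as a ratio to flh (squares), with the value of flh itself as a dotted line at -0.89. Otx5, nr2e3 and rx1 lie close to the flh line, and their ratios lie between -0.26 and 0.01.

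Beyond the 9 factors, a list of other photoreceptor and eye-field regulators gave 31 rows, of which 26 were tested. None was called, where 0.438% of all tested genes were, a share too small to expect a call among 26. Before adjustment, p in the authors' deposited table was under 0.05 for 5 of them, all lower, beside 3.76% of all tested genes on that side. Below 0 lay 20 of the 26, beside 54.1% of all tested genes. Their median log2 fold change was -0.26, between that of the 8 tested factors and that of all tested genes. The most abundant tested ones besides flh were pax6a, six3b, neurod4, otx1a, otx1b and neurod. Pax6a, an eye and brain regulator, was at 100.5 and 72.6 FPKM, and six3b, a forebrain and eye-field factor, at 49.0 and 59.6 FPKM. The proneural genes neurod4 and neurod had 51.1 and 43.9 FPKM, and 46.9 and 35.6 FPKM, respectively. Otx1a was at 49.2 and 44.0 FPKM and otx1b at 45.1 and 43.7 FPKM. Rorb, a nuclear receptor that acts early in rod development in mouse and was picked out after its values were seen, had 2.66 and 0.911 FPKM, with p = 0.00375 and q = 0.284 in the authors' deposited table. The rod factor nrl was listed at 0.184 and 0.0283 FPKM and was not tested.

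Regulators of that list that lay near otx5 included bsx and samd11, by the distance between log2 FPKM values over the 2 groups. Bsx, a homeobox gene of the pineal and hypothalamus, was at a distance of 0.61, with 17.5 and 11.8 FPKM. Samd11, in a locus shared by 2 rows, was at a distance of 0.78, with 10.2 and 9.32 FPKM. Their log2 fold changes were -0.57 and -0.13, beside -1.13 for otx5, so samd11 was near in level and not in fold. With 2 values per gene this measure reflects level and fold only.

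Genes that photoreceptors use downstream of these factors, such as those of phototransduction, were read beside them. Of 45 matched photoreceptor effector genes 17 were not tested, and 19 of the 45 were under 1 FPKM in both groups. Among the 28 tested 7 were called lower and none higher, beside 0.332% and 0.106% of all tested genes. Several of the 28, such as pde6c and gnat2, lie in loci shared with other rows, so reads of an overlapping gene can enter their values. The 7 called genes do not. Below 0 lay 27 of the 28, beside 54.1% of all tested genes. An unadjusted p under 0.05 in the authors' deposited table was held by 12, all lower, beside 3.76%. The median log2 fold change of the 28 was -1.21, beside -0.41 for the factors and -0.03 over all tested genes. The difference between these sets was not tested. Since opsin genes driven by six7 in green cones, opn1mw1 to opn1mw4, were under 0.1 FPKM in both groups and not tested, they say nothing on six7.

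**Figure D5:**
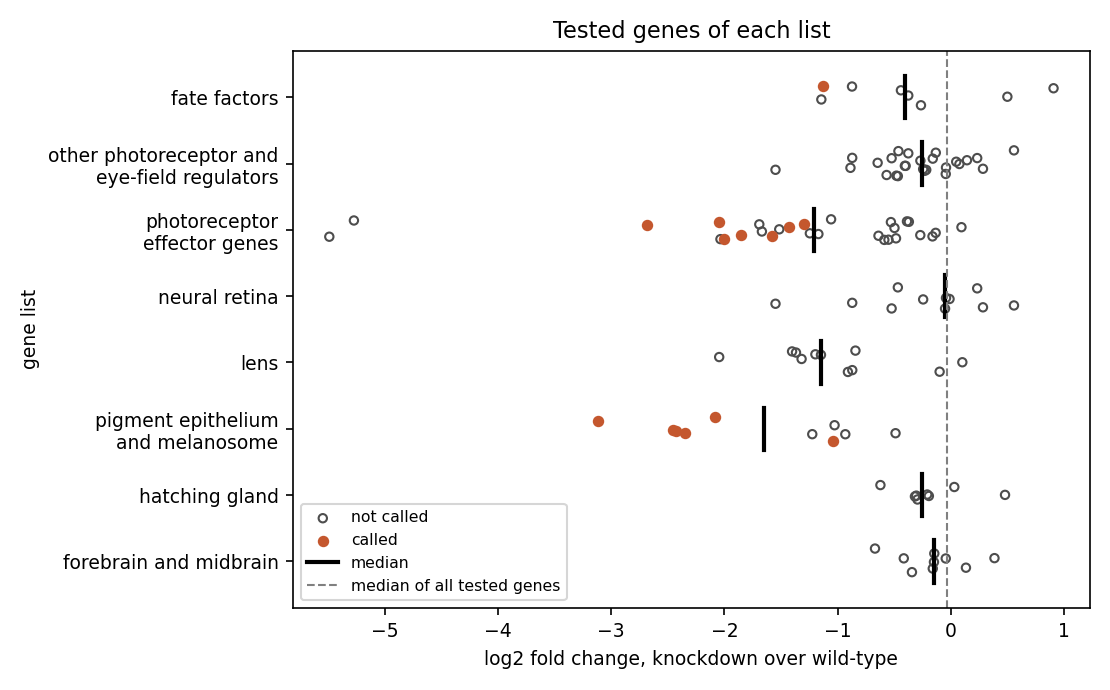
Log2 fold change of each tested gene by list, called genes filled, list medians as black bars and the median of all tested genes as a dashed line. The 8 tested factors spread from -1.14 to 0.91. The effector, lens and pigment lists have medians further to the left, with 7, 0 and 6 called genes, and the neural retina list has its median near 0.

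Several factors are also made in the eye, so markers of eye tissues that a sort from heads can contain were read in the same groups. Neural retina markers summed to 272 FPKM in wild-type against 235 FPKM after knockdown, of which pax6a, also a brain gene, gave 100.5 and 72.6. None of 11 tested was called, where 0.438% of all tested genes were, and the median log2 fold change was -0.05. Still, 8 of the 11 lay below 0, beside 54.1% of all tested genes. An unadjusted p under 0.05 on the lower side in the authors' deposited table was held by 3, beside 3.76%. Lens markers summed to 63.8 and 37.4 FPKM. None of 11 tested lens markers was called, where 0.438% of all tested genes were. Still, 10 lay below 0, beside 54.1% of all tested genes, and the median log2 fold change was -1.15. An unadjusted p under 0.05 on the lower side in the authors' deposited table was held by 7, beside 3.76%. Pigment epithelium and melanosome markers summed to 224 and 75.0 FPKM. All 10 lay below 0, beside 54.1% of all tested genes, with a median of -1.65, and 6 were called lower, beside 0.332%. An unadjusted p under 0.05 on the lower side in the authors' deposited table was held by 9, beside 3.76%. Melanosome genes do not mark the eye alone, and whether their values here come from the eye was not tested. Forebrain and midbrain markers, which bear on otx2, summed to 387 and 332 FPKM. None of 9 tested was called, where 0.438% of all tested genes were. Of these markers 7 lay below 0, beside 54.1% of all tested genes, and the median log2 fold change was -0.15. Only emx2, on the lower side, had an unadjusted p under 0.05 (p = 0.00525 in the authors' deposited table), beside 3.76% of all tested genes. Pax6a, six3a, mab21l2, crybb1, pmela and otx1b lie in loci shared with other rows, so reads of an overlapping gene can enter the sums. No marker of these lists was listed at 0 in both groups, and their part in the values of otx2, crx, nr2e3 and the Rx genes was not tested. Of 8 matched markers of the pineal complex itself, which include flh, otx5 and crx, 7 lay below 0, beside 54.1% of all tested genes. An unadjusted p under 0.05 in the authors' deposited table was held by 3, all lower, beside 3.76%. Called lower were 2, beside 0.332%: otx5 and gngt2a, the cone transducin gamma subunit. All of the 8 but isl1 are already counted above, among the factors, the other regulators or the effector genes. The median log2 fold change of the 8 was -0.50. Nearly level were the markers aanat2, at 3.43 and 3.13 FPKM, and isl1, at 6.86 and 7.01 FPKM.

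The genes lying next to the factors were read as well. The nearest tested gene on each side of each factor gave 18 neighbours, none of them called where 0.438% of all tested genes were, with a median log2 fold change of -0.05. The p in the authors' deposited table was under 0.05 for 1 of them, nmrk2 beside rx2, at 1.60 and 0.251 FPKM. All tested genes gave 3.76% on the lower side and 1.77% on the higher side. Among tested genes, otx5 stood between psma6l, at 1.19 and 0.740 FPKM, and a copy of MPZL2, at 1.24 and 1.38 FPKM. Nr2e3 had stoml1 2784 bases away, at 3.59 and 3.46 FPKM. Each factor had a locus of its own in the table, so none of their values rests on a merged region.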

How the data were processed

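RNA of sorted pineal complex cells was sequenced in 8 libraries, 4 per group. The Zv9 build and the tools Cuffdiff, TopHat2, Bowtie2, Trimmomatic 0.32, FastQC 0.10.0 and CASAVA 1.8.2 are named per the submitters' processing notes. The sources used here give neither settings nor annotation, nor how technical replicates were handled. Per the file headers, the deposited table gives 1 FPKM value per gene and group, the log2 fold change of knockdown over wild-type, a test statistic (a score), a p-value and a q-value from the authors' test. Coordinates are the file's own, and whether starts count from 0 or 1 is not stated. No test across libraries was possible, so calls are the authors' deposited flag. The deposited q-value differed by at most 5.2e-07 from the p-value adjusted anew by Benjamini-Hochberg over the 18954 tested genes. The smallest deposited p is 5e-05. An error of the fold was not taken from the statistic, because the deposited p does not follow it: for otx5 a normal distribution would give 0.0248 where the deposited p is 0.0001. Fold differences, shares and ratios were computed from FPKM with Python 3.11.15, pandas and numpy, and the functions were tested on simulated data. Log2 fold changes of genes are the deposited ones, except under pseudocounts, and list medians were taken over them. For tested genes with a finite fold, the deposited value differed by at most 0.236 from the one computed from FPKM. Percentages of tested genes by fold use the 18800 with a finite fold.

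Members and gene lists were chosen with earlier results of these data known. Members were matched by the table's own symbol. List genes were matched by symbol, or by identifier where the current name differs; exorh and some others found no match and were not used here. Named were all members, called list genes where a result turned on them, the 6 most abundant tested regulators, regulators near otx5 (1 gene is not reported here, though list totals count it), tbx2b and flh; rorb, nrl, the neighbours and the ratios were picked after values were seen. Alternatives were pseudocounts of 1 and 0.1, rescaling to TPM, centring on the median, a minimum of 1 FPKM, a q under 0.1 and adjustment over expressed genes.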

Additional observations from a re-analysis of the deposited data

How the results depend on the processing

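No paired analysis was possible because the deposited values are per group, with none per library; leaving out each library was not run for the same reason. At a deposited q under 0.1 the number of called factors was 2 rather than 1, nr2e3 joining otx5. A p as small as that of nr2e3 or smaller was held by 125 of the 18954 tested genes, so at least that many pass here. Adjusted over the 16158 tested genes at 1 FPKM or more in a group, the count was again 1, with a q of 0.0252 for otx5 and 0.0905 for nr2e3. The share of all tested genes called was not computed at either setting. Rescaling to TPM adds 0.106 to every log2 fold change and turned that of six7, which was not tested, from -0.08 to 0.028. A pseudocount cannot change the direction of a fold, and the TPM rescaling and centring shift all folds alike. Both shifts were smaller than the smallest fold of the 8 tested factors, -0.26 for otx2. That the 8 kept their direction was therefore fixed in advance and is no check of it. Over these settings otx5 ranged from -1.12 to -1.03. The median of the 8 was -0.33 on log2(FPKM + 1) and -0.30 rescaled to TPM, and the count of 6 below 0 could not change. Depth is unknown, so the error of low genes such as six7, rx2 and prdm1a cannot be given.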
